A study of Homo sapiens with 12 samples.

Results

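The serpin family of protease inhibitors was examined in A549 cells, an established human lung adenocarcinoma line that normally grows attached to the dish, with and without the transcription factor GFI1. The family was taken as every protein-coding gene whose symbol is SERPIN, a clade letter from A to I and a number, which gave 34 members among the 58735 genes counted and the 19951 that code for protein. Of these, 33 are described, and 12 of the 33 had enough counts to be tested. The study asked how GFI1 changes the behavior of lung cancer cells that hold or lose their contact with a substrate. Control cells and GFI1 cells, both grown in RPMI1640 with serum, were either left attached and untreated or held floating for 48 hours, which gave 4 groups of 3 mRNA libraries. GFI1 was introduced by a lentivirus in which the human PGK promoter drives the insert together with GFP, and the cells that were sequenced had been sorted for GFP. An empty vector in the control cells is not mentioned in the labels, although the paper describes A549 controls with an empty vector for its mouse assays. Where the sequenced controls lacked one, an effect of transduction and an effect of GFI1 cannot be told apart. All libraries come from a single cell line, and nothing states that replicates were separate cultures, so the p values measure only the spread between these libraries.

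Serpins share a fold with an exposed loop that a target protease cuts as bait. The cut loop snaps into the body of the serpin, which deforms the protease and holds it in a dead covalent complex. Extracellular members control blood clotting, fibrinolysis, complement and neutrophil elastase, and clade B members work mainly inside cells. Several members do not inhibit proteases and serve as chaperones or hormone carriers. Some members block the plasminogen activators, the proteases that turn plasminogen into plasmin at the cell surface.

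Total counts ran from 17014188 to 20748677 per library. GFI1 had 4 to 12 counts in the control libraries and 5154 to 12796 in the GFI1 libraries, in keeping with the labels of all 12. Of 6 epithelial markers, KRT7, KRT8 and KRT18 had at least 8281 counts in every library, CDH1 had 66 to 2186, and EPCAM and KRT19 had at most 45 and 89, whereas the lung lineage markers NKX2-1, SFTPA1, SFTPB and SFTPC had at most 36. The summed epithelial level was lower with GFI1. It was 10386 to 10986 CPM (counts divided by the TMM-scaled library size) in attached control and 4222 to 4339 CPM in attached GFI1 libraries. In floating libraries it was 6529 to 6938 CPM in control and 3039 to 3411 CPM with GFI1. KRT7, KRT8 and KRT18 made up nearly all of the sum. With GFI1, mean CDH1 fell from 120 to 6.45 CPM in attached cells and from 85.4 to 3.99 CPM in floating cells. Of the 6, only KRT19 rose, from 1.11 to 1.97 CPM and from 1.90 to 2.80 CPM. The sum of 3 endothelial markers was 0.109 to 0.602 CPM in control and 3.55 to 5.52 CPM in GFI1 libraries. That of 2 hepatocyte markers was 0.0543 to 0.181 CPM in control and 1.54 to 2.70 CPM in GFI1 libraries. The hepatocyte rise was that of ALB alone, since TTR had at most 2 counts in any library. The sum of 3 blood cell markers ran from 4.17 to 13.8 CPM and was nearly all CD14, with PTPRC at no more than 1 count and CD3E at 0. The sum of 3 fibroblast markers ran from 5.29 to 14.1 CPM, with COL1A1 at 53 to 256 counts, PDGFRB at 1 to 66 and DCN at 0. The part of these shifts in the serpin values was not tested. Libraries of a group differed most in the floating GFI1 group, where replicates 2 and 3 had a chi-square per gene of 11.2, against 1.98 to 4.78 in the other 11 pairs. For several serpin genes whose value or call moved with their spread, the value without 1 of them is given. Interaction calls gained without 1 of them are given near the end.

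Most of the family was silent or close to silent in these cells. SERPINA11, SERPINB2, SERPINB10, SERPINB11 and SERPINB13 had 0 counts in every library, a result that allows up to 3 counts in each. SERPINB2, an inhibitor of plasminogen activators, is among them. A further 10 members reached at most 3 counts in any library. These were SERPINA5 with 3, SERPINB3, SERPINI2 and SERPING1 with 2, and SERPINA4, SERPINA7, SERPINA9, SERPINA12, SERPINB4 and SERPINB12 with 1. SERPING1, the inhibitor of the complement protease C1, was thus at the floor although the genes of its target, C1R and C1S, were well expressed. SERPINA3, SERPINA10, SERPINB5 and SERPINC1 reached 4 counts and SERPINB7 reached 5. SERPIND1, which encodes heparin cofactor II, reached 18 counts in 1 library and 11 or fewer in the others, and did not pass the filter. SERPINB3 and SERPINB4 are near-identical copies whose reads could be split between them.

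**Figure D1:**
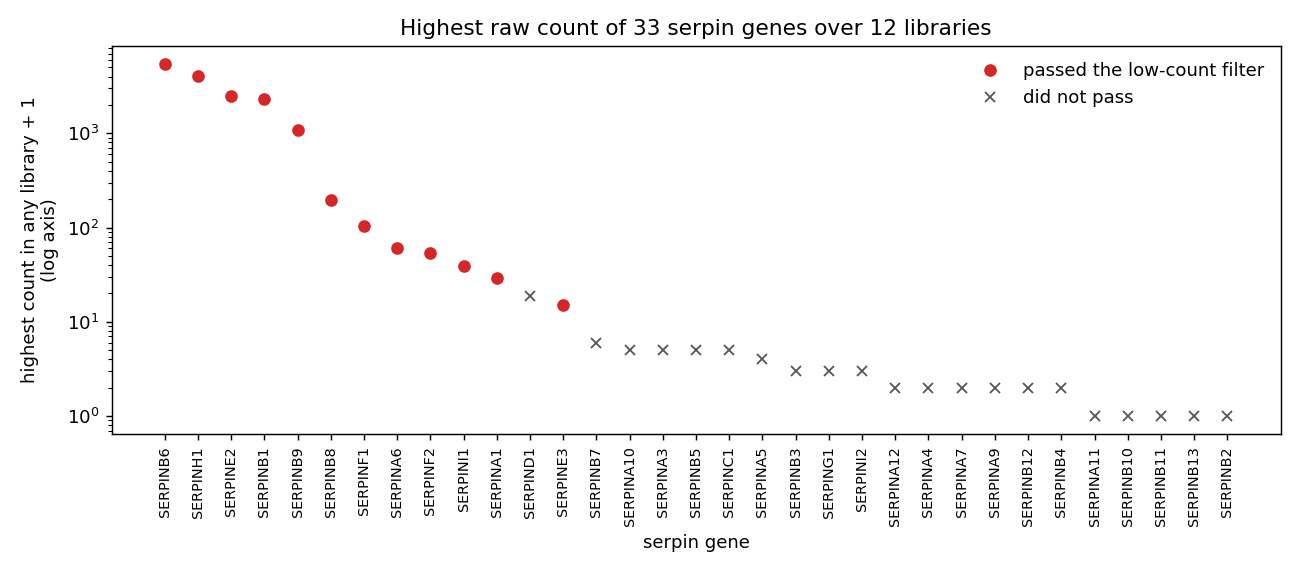
Highest raw count (plus 1, log axis) of 33 serpin genes over the 12 libraries. Filled points mark the 12 genes that passed the low-count filter and crosses mark the 21 that did not. SERPIND1, with a highest count of 18, lies above the tested gene SERPINE3, with 14, but did not pass the filter.

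The members lie in several clusters. Of the 10 members on chromosome 18, only SERPINB8 was tested, and of the 9 on chromosome 14, only SERPINA1 and SERPINA6. All 3 members on chromosome 6 were tested. They lie within the same stretch of the short arm on the minus strand, SERPINB1 at chr6:2832332-2842006, SERPINB9 at chr6:2887266-2903280 and SERPINB6 at chr6:2948159-2972165 (GRCh38, as the counted annotation gives them). SERPINF1 and SERPINF2 are neighbors on chromosome 17.

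Among the tested members, 5 genes carried nearly all of the counts of the 33. SERPINH1, SERPINB6, SERPINB1, SERPINE2 and SERPINB9 together held 96.1% to 98.6% of these counts in each library. Per kilobase of gene model, the levels in attached control cells were 35.3 ± 1.48 CPM for SERPINH1 and 31.1 ± 0.615 for SERPINB1 (SD, n = 3 each). SERPINB9 followed at 10.5 ± 0.655 CPM per kilobase, SERPINE2 at 8.03 ± 0.230 and SERPINB6 at 7.20 ± 0.585, and the other 7 tested members were at 1.52 or below. The ranking in floating GFI1 cells differed. SERPINB1 was at 33.9 ± 5.35 CPM per kilobase there, SERPINH1 at 32.1 ± 0.454 and SERPINB6 at 21.2 ± 1.86, of which SERPINB1 and SERPINH1 did not differ beyond their spread. SERPINB6 thus stood above SERPINE2, at 13.5 ± 0.426, and SERPINB9, at 11.8 ± 2.43. These orders depend on the length of the gene model, 13201 bases for SERPINB6, 3094 for SERPINB1 and 4118 for SERPINB9. Undivided, SERPINB6 was at 95.0 CPM in attached control cells, beside 96.3 for SERPINB1, 71.4 for SERPINE2 and 43.2 for SERPINB9. In floating GFI1 cells it was highest, at 280 CPM, beside 201 for SERPINH1 and 105 for SERPINB1.

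The summed level of the 33 members was 546 ± 16.6 CPM in attached controls and 619 ± 13.2 CPM in floating control cells (SD, n = 3 each). It was 614 ± 9.87 CPM in attached GFI1 cells and 766 ± 49.3 CPM in floating GFI1 cells. The sum was lowest in the attached control libraries, at 528 to 560.5 CPM, and highest in the floating GFI1 libraries, at 720 to 818 CPM. Neither group overlapped another. Mean SERPINB6 alone rose with GFI1 from 95.0 to 224 CPM in attached cells and from 107 to 280 CPM in floating cells. These rises were larger than those of the sum, so the remaining members summed to less with GFI1 in attached and in floating cells.

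**Figure D2:**
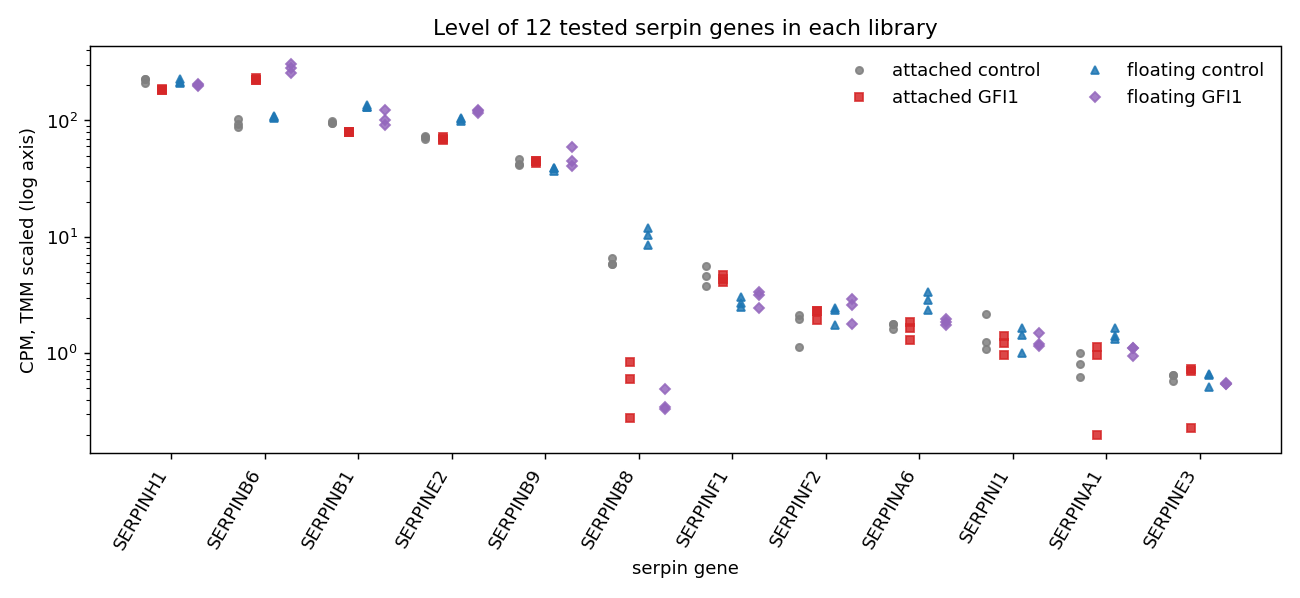
Level of each of the 12 tested serpin genes in each library, in CPM on a log axis, with 1 symbol per library and 4 groups of 3 libraries. SERPINB6 lies higher in GFI1 libraries, and SERPINB8 falls from 5.81 to 11.9 CPM in control libraries to 0.277 to 0.845 CPM in GFI1 libraries.

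Each contrast was tested with edgeR's quasi-likelihood test over 17829 genes, and a gene was called at an adjusted p of 0.05 or less. In attached cells, 4 of the 12 tested serpin genes were called for GFI1, 1 higher and 3 lower, while 62.3% of all tested genes were called, 29.5% higher and 32.8% lower. The median log2 fold change of the 12 was -0.11, beside -0.0066 over all tested genes. In floating cells, 7 serpin genes were called, 3 higher and 4 lower, with 60.4% of all genes called, 29.3% higher and 31.1% lower, and medians of -0.099 and 0.011. The CPM of GFI1 and control libraries did not overlap for 4 members in attached cells and 8 in floating cells, against 67.0% and 64.4% of all genes. When at least a 2-fold change was also required, 2 members were left in attached cells and 2 in floating cells, SERPINB6 and SERPINB8 in both, beside 18.2% and 17.3% of all genes.

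Most members called for suspension were higher in floating cells. In control cells 6 serpin genes were called, 5 higher and 1 lower, beside 40.1% of all genes, 19.6% higher and 20.5% lower, with a median of 0.25 for the members and 0.011 for all genes. In GFI1 cells 5 were called, 4 higher and 1 lower, beside 31.3% of all genes, 15% higher and 16.3% lower, with medians of 0.14 and 0.0017. Groups did not overlap for 8 and 5 members, against 49.9% and 41.4% of all genes, and 0 of the calls reached a 2-fold change, beside 5.10% and 2.80% of all genes. The suspension changes differed between GFI1 and control cells (the interaction) for 1 member, SERPINE2, with a positive value, beside 10.8% of all genes, 4.76% positive and 6.01% negative, with medians of 0.10 for the members and -0.0036 for all genes. This interaction did not reach 2-fold, beside 1.35% of all genes that did. These contrasts share groups, so the same libraries enter several of them.

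**Figure D3:**
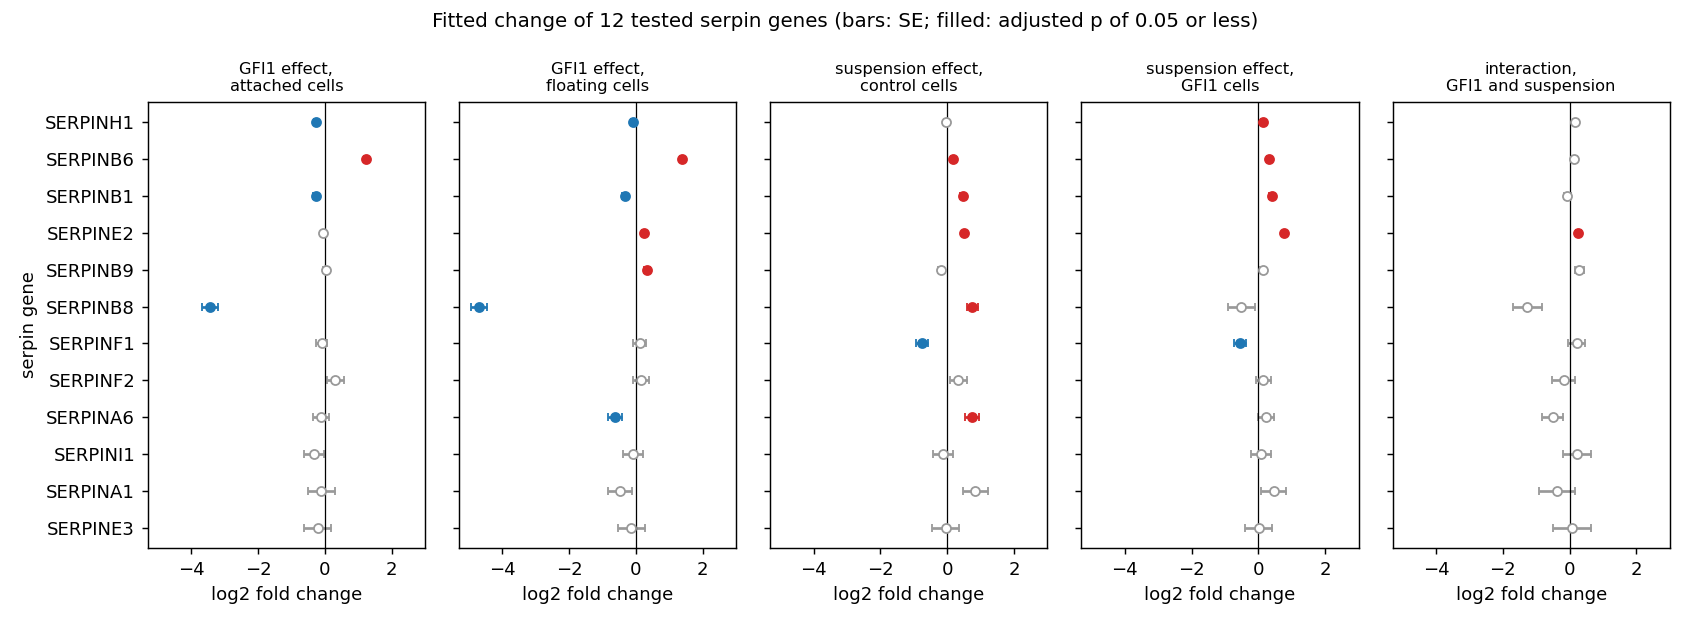
Fitted log2 fold change of the 12 tested serpin genes in the 5 contrasts, with bars for the SE. Filled points, red for higher and blue for lower, are past an adjusted p of 0.05 and open points are not. SERPINB8 stands lowest in both GFI1 contrasts, at -3.43 and -4.69, and SERPINB6 highest, at 1.24 and 1.38.

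SERPINE2, protease nexin-1, inhibits thrombin, urokinase and other trypsin-like proteases. It was at 73.2, 71.7 and 69.2 CPM in the attached control libraries and at 67.5, 71.7 and 69.2 CPM in the attached GFI1 libraries, which overlapped. It was at 102, 106 and 98.1 CPM in the floating control libraries and at 121, 115 and 123 CPM in the floating libraries with GFI1, above every attached library. Suspension raised SERPINE2 by 0.52 ± 0.05 in control cells and by 0.78 ± 0.05 in GFI1 cells on the log2 scale (adjusted p 1.53e-09 and 1.32e-12 by edgeR's quasi-likelihood test). The difference between these changes was 0.27 ± 0.06 (adjusted p 0.00680), and the GFI1 effect was called in floating cells (0.23 ± 0.04, adjusted p 7.62e-05) and not in attached cells. The floating GFI1 libraries lay close together for SERPINE2, whereas SERPINB6, SERPINB1 and SERPINB9 were highest in replicate 2 of that group and lowest in replicate 3. The level of GFI1 had that same order, at 545, 706 and 430 CPM for replicates 1 to 3, and its part in the spread was not tested. SERPINI1, neuroserpin, an inhibitor of PLAT in the nervous system, stayed between 0.969 and 2.18 CPM and was called in no contrast.

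The genes of the plasminogen activators, which several serpins can block, were set beside SERPINE2. PLAU, which encodes urokinase, was at 84.7, 84.5 and 86.2 CPM in attached control libraries and at 22.5, 23.7 and 23.2 CPM in attached GFI1 libraries. It was at 49.1, 53.1 and 45.7 CPM in floating control libraries and at 8.11, 8.77 and 9.05 CPM in floating GFI1 libraries. The 4 groups did not overlap, and the order of PLAU was led by the attached control group and closed by the floating GFI1 group. With GFI1, PLAU was 3.67-fold lower among attached cells (-1.88 ± 0.06 on the log2 scale, adjusted p 1.71e-19) and 5.69-fold lower among floating ones (-2.51 ± 0.07, adjusted p 2.64e-20), and its interaction was -0.63 ± 0.09 (adjusted p 4.59e-05, all by edgeR's quasi-likelihood test).

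PLAT, the tissue-type activator, had a low level, with 3.81 ± 0.225 CPM in the attached controls and 4.22 ± 0.260 CPM in the attached cells with GFI1 (SD, n = 3 each). It was at 1.29 ± 0.176 CPM in floating control cells and 2.82 ± 0.166 CPM in floating GFI1 cells, a rise with GFI1 in floating cells of 1.12 ± 0.20 on the log2 scale (edgeR, adjusted p 2.81e-05). PLAUR, the urokinase receptor, fell by 0.75 with GFI1 in attached cells on the log2 scale (edgeR, adjusted p 0.00157). In floating cells it was at 65.4, 65.7 and 58.1 CPM in the controls and at 38.8, 66.0 and 24.4 CPM with GFI1, so the groups overlapped. The fitted change there was -0.56 (edgeR, adjusted p 0.00738), and it was -0.998 without floating GFI1 replicate 2 (adjusted p 3.72e-11) and -0.27 without replicate 3 (adjusted p 0.0373). LRP1, an endocytic receptor that clears serpin and protease complexes, fell from 108 ± 6.33 to 42.0 ± 3.67 CPM in attached cells with GFI1 and was at 260.5 ± 15.7 and 208 ± 101 CPM in floating control and floating GFI1 cells (SD, n = 3 each). In the floating GFI1 libraries, LRP1 was at 201, 312 and 111 CPM, with replicate 2 highest and replicate 3 lowest as for PLAUR. The change of LRP1 with GFI1 in floating cells was -0.33 (edgeR, adjusted p 0.119). Without replicate 2 it was -0.74 (adjusted p 3.06e-07), and without replicate 3 it was -0.021 (adjusted p 0.860). PLAU did not follow this order.

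**Figure D4:**
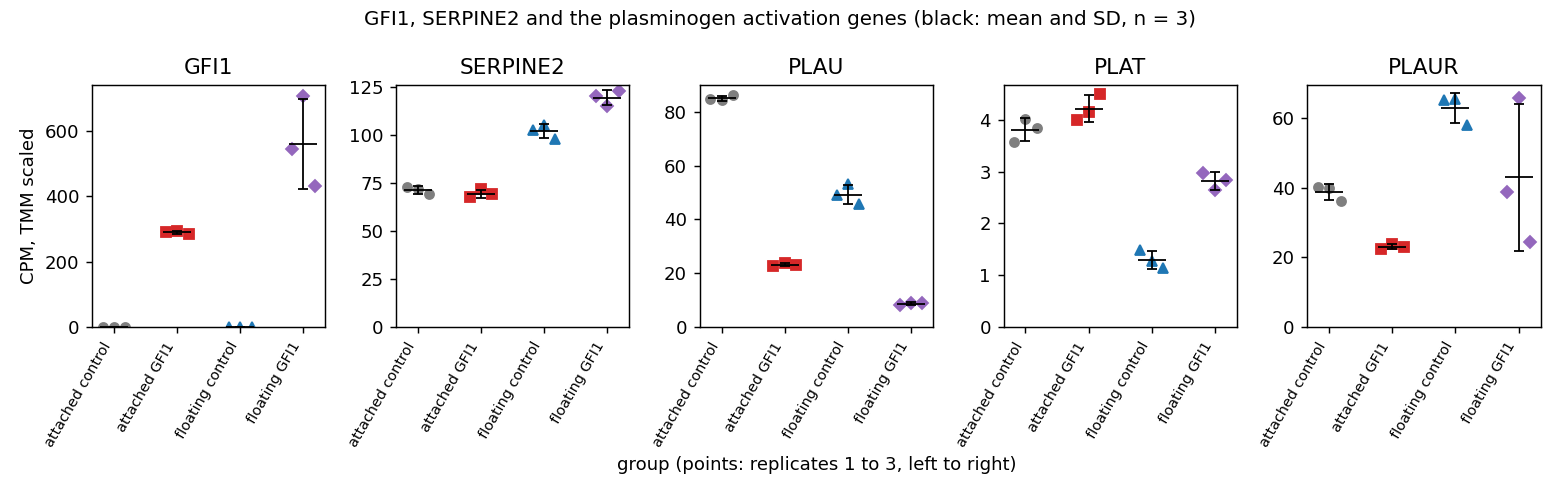
Level in CPM of GFI1, SERPINE2, PLAU, PLAT and PLAUR in the 12 libraries, with the mean and SD of each group of 3 in black. SERPINE2 lies at 98.1 CPM or above in floating libraries and at 73.2 CPM or below in attached ones, and PLAU falls to 8.11 to 9.05 CPM in floating GFI1 libraries.

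SERPINE2 and SERPINB9 were both called higher with GFI1 in floating cells and not called in attached cells. For SERPINB9 the difference was not past the threshold (0.30 ± 0.13, edgeR, adjusted p 0.146). It passed without floating GFI1 replicate 3 (0.41, adjusted p 0.00986). SERPINA6 was called lower with GFI1 in floating cells only, and its window, with 53 exon bases, is not shown. A window of 250 bases before a start is shown for SERPINE2 and for SERPINB9. That of SERPINE2 precedes a start inside the gene and covers chr2:224031479-224031728 on the minus strand, and that of SERPINB9 covers chr6:2903310-2903559 on the minus strand (RefSeq, GRCh38.p14). Capitals mark the letters AATC, the core of the GFI1 binding motif, and its reverse complement GATT. Both sequences run 5′ to 3′ toward the gene.
SERPINE2: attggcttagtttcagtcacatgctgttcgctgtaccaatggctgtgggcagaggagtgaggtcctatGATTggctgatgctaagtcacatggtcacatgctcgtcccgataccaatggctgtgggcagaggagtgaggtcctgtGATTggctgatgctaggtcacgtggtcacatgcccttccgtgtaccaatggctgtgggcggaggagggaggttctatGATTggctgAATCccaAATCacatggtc
SERPINB9: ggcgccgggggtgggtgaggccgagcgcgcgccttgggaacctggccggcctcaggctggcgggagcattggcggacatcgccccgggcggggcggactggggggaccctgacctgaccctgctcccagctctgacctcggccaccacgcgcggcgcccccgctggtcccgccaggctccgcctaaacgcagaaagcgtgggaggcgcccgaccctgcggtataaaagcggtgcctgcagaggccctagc
The SERPINE2 window shown held 5 matches, 2 of AATC and 3 of GATT, and the other SERPINE2 window and that of SERPINB9 held 0. The 3 GATT matches lie in repeated stretches of nearly the same letters, so they are not separate kinds of match. Of all 35116 windows of this length, 64.8% held at least 1 match on either strand. Of the 12 tested members, 10 had an entry, with 17 windows, and 6 of these held a match. Besides SERPINE2, these were the SERPINB8 window with 4 matches, 1 of 4 SERPINB6 windows and 1 of 2 SERPINE3 windows with 3 each, 1 of 2 SERPINH1 windows with 2 and the SERPINB1 window with 1. Of the 17 windows, 7 lie wholly in annotated exons, among them the matching ones of SERPINB8, SERPINE3 and SERPINH1, and 3 hold no exon base. The hypoxia response core ACGTG, searched with CACGT, was in 5 of the 17 windows and in 18.5% of all windows, with 1 place in the SERPINE2 window shown, where both orientations overlap. SERPINF1 and SERPINF2 had no entry. A match in a window is a stretch of letters, and binding was not analysed here.

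SERPINB6, an intracellular inhibitor of cathepsin G and trypsin-like proteases, was at 104, 88.8 and 92.6 CPM in the attached control libraries and at 222, 230.3 and 221 CPM in the attached GFI1 libraries. It was at 107, 108 and 106 CPM in the floating control libraries and at 284, 303 and 254 CPM in the floating libraries with GFI1. Every GFI1 library was above every control library. GFI1 raised SERPINB6 2.36-fold among attached cells (1.24 ± 0.06 on the log2 scale, adjusted p 7.36e-16) and 2.61-fold among floating ones (1.38 ± 0.06, adjusted p 6.35e-17, edgeR's quasi-likelihood test). Suspension raised it by 0.32 ± 0.05 in GFI1 cells (edgeR, adjusted p 5.03e-05). In control cells the rise was 0.18 ± 0.06 (adjusted p 0.0192), a call that was lost without attached control replicate 2 (adjusted p 0.128), attached control replicate 3 (0.0762) or floating control replicate 2 (0.0574).

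Its neighbor SERPINB1, an inhibitor of neutrophil elastase, cathepsin G and proteinase 3, moved the opposite way with GFI1. SERPINB1 was at 98.5, 95.5 and 95.0 CPM in the attached control libraries and at 79.9, 80.2 and 79.0 CPM in the attached GFI1 libraries. It was at 129.8, 137 and 131 CPM in the floating control libraries and at 101, 123 and 90.6 CPM in the floating libraries with GFI1. Each GFI1 group lay below its control group. The log2 fold change of SERPINB1 with GFI1 was -0.27 ± 0.07 for attached and -0.34 ± 0.07 for floating cells (adjusted p 0.00120 and 9.81e-05 by edgeR's quasi-likelihood test). The latter was -0.46 without floating GFI1 replicate 2 and -0.24 without replicate 3. The call in attached cells was lost when libraries were scaled by size only (-0.13, adjusted p 0.0986). Suspension raised SERPINB1 by 0.46 ± 0.07 in control cells and 0.40 ± 0.07 in GFI1 cells (adjusted p 3.87e-06 and 5.40e-05), and the value in GFI1 cells was 0.25 without floating GFI1 replicate 2 and 0.49 without replicate 3, both still past the threshold.

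SERPINB9, the inhibitor of granzyme B, lies between these genes. It was at 41.3, 42.1 and 46.3 CPM in the attached control libraries and at 45.1, 44.6 and 43.4 CPM in the attached GFI1 libraries. In floating cells it was at 36.9, 39.3 and 38.9 CPM in the controls and at 44.7, 59.8 and 40.9 CPM with GFI1. The attached groups overlapped and the floating groups did not, although floating GFI1 replicate 3 was only just above the controls. The GFI1 effect in floating cells was 0.33 ± 0.09 on the log2 scale (edgeR, adjusted p 0.00232), and it was 0.16 without floating GFI1 replicate 2 (adjusted p 0.0332) and 0.44 without replicate 3 (adjusted p 1.78e-05). The gene of its target, GZMB, was not among the tested genes.

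SERPINB8 (ENSG00000166401, chr18:63969925-64019779, plus strand), an intracellular inhibitor that can bind furin and trypsin-like proteases, had the largest fitted change among the 12 tested members in both GFI1 contrasts. It had 99, 107 and 114 counts in the attached control libraries and 15, 6 and 12 counts in the attached GFI1 libraries. It had 176, 197 and 151 counts in the floating control libraries and 6, 9 and 7 counts in the floating GFI1 libraries. The control and GFI1 libraries were far apart at every point. SERPINB8 was thus 10.8-fold lower with GFI1 among attached cells (-3.43 ± 0.24 on the log2 scale, adjusted p 4.50e-12) and 25.9-fold lower among floating ones (-4.69 ± 0.25, adjusted p 1.10e-14, edgeR's quasi-likelihood test). Counted from the lowest log2 fold change, it stood at place 174 of the 17829 tested genes in attached cells and at place 71 in floating cells. In bulk RNA, a lower level in every cell and fewer cells that express the gene cannot be told apart.

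Suspension raised SERPINB8 in control cells, from 6.08 ± 0.400 to 10.3 ± 1.66 CPM (SD, n = 3 each), or 0.76 ± 0.16 on the log2 scale (edgeR, adjusted p 0.000365). In GFI1 cells the level was 0.574 ± 0.285 CPM attached and 0.392 ± 0.0909 CPM floating, with overlapping libraries and no call. The interaction of -1.26 ± 0.44 was not past the threshold (edgeR, adjusted p 0.0677), and passed it without floating GFI1 replicate 2 (-1.47, adjusted p 0.0473). Overlapping genes had few counts, with 0 to 1 for HMSD on the same strand and 0 to 11 for AC009802.1 on the other. FURIN, the gene of one of its targets, is among the proteases counted below.

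The next members are known mainly for work other than protease inhibition. SERPINH1, or HSP47, is the collagen chaperone of the endoplasmic reticulum. It was at 227, 211 and 227 CPM in the attached control libraries and at 182, 187 and 183 CPM in the attached GFI1 libraries, which did not overlap. It was at 228, 212 and 209 CPM in the floating control libraries and at 199, 204 and 201 CPM in the floating libraries with GFI1, a gap of a few CPM. Attached cells had less SERPINH1 with GFI1 (-0.27 ± 0.04 on the log2 scale, adjusted p 7.82e-06 by edgeR's quasi-likelihood test). In floating cells the value was -0.10 ± 0.04 (adjusted p 0.0479), a call that was lost in 13 of 19 alternative settings and turned to 0.028 (adjusted p 0.582) in 1 more, scaling by library size only. Suspension raised SERPINH1 by 0.13 ± 0.04 in GFI1 cells (adjusted p 0.0250), and this call was lost without attached GFI1 replicate 1 (adjusted p 0.0771), attached GFI1 replicate 3 (0.129) or floating GFI1 replicate 2 (0.108).

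The 14 genes that modify and fold procollagen beside SERPINH1 were all tested. With GFI1 in attached cells, 3 were higher and 10 lower, with the lowest adjusted p for FKBP10, a prolyl isomerase (0.34 ± 0.04, adjusted p 6.95e-08), among the higher genes and among the lower ones for PLOD2, a lysyl hydroxylase (-1.62 ± 0.06, adjusted p 4.04e-18, edgeR). PLOD2 went from 302 ± 2.95 to 98.0 ± 1.80 CPM (SD, n = 3 each). In floating cells 3 were higher and 8 lower, with P3H4 as the higher gene of lowest p (0.30 ± 0.05, adjusted p 4.57e-06) and PLOD2 again as the lower one (-1.43 ± 0.06, adjusted p 3.83e-17, edgeR). Suspension raised 9 and lowered 2 of them in control cells, and raised 8 and lowered 0 in GFI1 cells. P4HA1, a prolyl hydroxylase subunit, rose in both, by 1.38 ± 0.10 and 1.55 ± 0.10 (edgeR, adjusted p 6.11e-11 and 8.57e-12). The floating GFI1 libraries of P4HA1 were spread, at 179, 227 and 140 CPM, beside 59.8 to 64.7 CPM in the attached GFI1 libraries. P3H3 fell in control cells (-0.35 ± 0.07, adjusted p 0.000209). The interaction was called for P4HA3 (1.23 ± 0.24, adjusted p 0.000765) and PPIB (-0.24 ± 0.07, adjusted p 0.0231). In all, 13, 11, 11, 8 and 2 of the 14 were called in the 5 contrasts, beside 62.3%, 60.4%, 40.1%, 31.3% and 10.8% of all tested genes. The medians of the 14 genes were -0.30, -0.31, 0.23, 0.16 and 0.079 in the 5 contrasts in the same order as above.

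**Figure D5:**
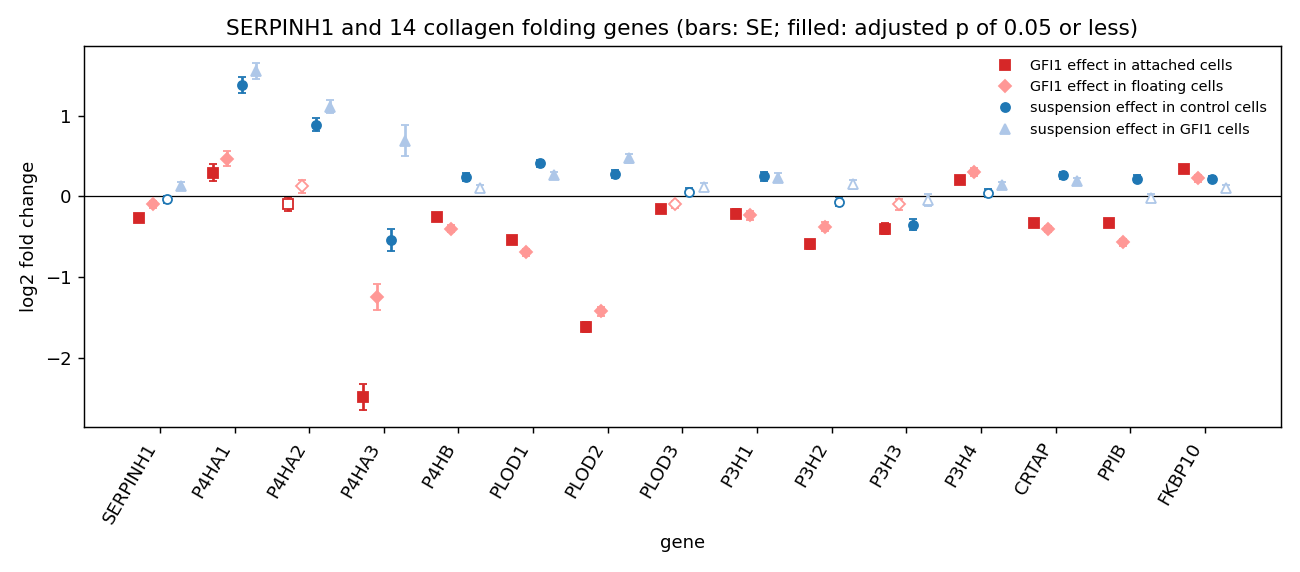
Fitted log2 fold change of SERPINH1 and 14 genes of collagen modification and folding in the 4 pairwise contrasts, with bars for the SE and filled points past an adjusted p of 0.05. PLOD2 lies at -1.62 and -1.43 for GFI1, and P4HA1 at 1.38 and 1.55 for suspension.

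SERPINF1, or PEDF, a secreted factor that limits vessel growth, was at 3.81, 5.59 and 4.59 CPM in the attached control libraries and at 4.34, 4.11 and 4.71 CPM in the attached GFI1 libraries. It was at 2.49, 2.71 and 3.06 CPM in the floating control libraries and at 3.36, 3.20 and 2.44 CPM in the floating libraries with GFI1. Every floating library was below every attached one. SERPINF1 was the only one of the 12 tested members called lower with suspension, by -0.76 ± 0.18 in control cells and -0.55 ± 0.17 in GFI1 cells (adjusted p 0.00135 and 0.0174 by edgeR's quasi-likelihood test). The latter call was lost without attached GFI1 replicate 3 (adjusted p 0.0601) or floating GFI1 replicate 3 (0.101). Its neighbor SERPINF2, the plasmin inhibitor alpha-2-antiplasmin, stayed between 1.13 and 2.92 CPM and was called in no contrast.

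SERPINA6, the cortisol carrier of plasma, was at 2.37, 2.89 and 3.40 CPM in the floating control libraries, and at 1.30 to 1.99 CPM in the other 9. It rose with suspension in control cells by 0.74 ± 0.22 and changed with GFI1 in floating cells by -0.62 ± 0.21 on the log2 scale (edgeR, adjusted p 0.00777 and 0.0137). Both calls rested on floating control replicate 3, since without it the values were 0.60 (adjusted p 0.0567) and -0.48 (adjusted p 0.0873). SERPINA1, alpha-1-antitrypsin, the main inhibitor of neutrophil elastase, had 4 to 28 counts per library and was called in no contrast. SERPINE3 had 5 to 14 counts and overlaps INTS6 on the opposite strand over 10659 bases, where INTS6 had 429 to 729 counts. The strand setting of the counting is not given in the sources used here, so reads of SERPINE3 and INTS6 cannot be told apart if it ignored strand. SERPINE3 was called in no contrast.

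Members that did not pass the threshold had log2 fold changes from -0.32 to 0.32 for GFI1 in attached cells (8 genes) and from -0.48 to 0.14 in floating cells (5 genes). For suspension they ran from -0.17 to 0.84 in control cells (6 genes) and from -0.51 to 0.46 in GFI1 cells (7 genes), and for the interaction from -1.26 to 0.30 (11 genes). The SE of the members with few counts reached 0.40 to 0.57, so even changes well above the SE could go uncalled at this depth. The SERPINB8 interaction of -1.26 ± 0.44 was not called (edgeR, adjusted p 0.0677).

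Of 59 genes of proteases that serpins block, their cofactors and the receptors that clear them, 30 were tested. With GFI1, the attached cells had 11 of them higher and 11 lower, and the floating cells had 9 higher and 11 lower. Suspension raised 13 and lowered 5 in control cells, and raised 12 and lowered 3 in GFI1 cells, and the interaction was positive for 5 and negative for 6. The called share was thus 73.3%, 66.7%, 60%, 50% and 36.7% of the 30 in the 5 contrasts, beside 62.3%, 60.4%, 40.1%, 31.3% and 10.8% of all tested genes. The gene with the lowest adjusted p among the higher ones was THBD, thrombomodulin, the thrombin receptor that redirects thrombin to protein C. THBD was at 40.9, 38.6 and 37.9 CPM in the attached control libraries and at 344, 356 and 341 CPM in the attached GFI1 libraries, which lay far apart. The fitted rise with GFI1 was 3.15 ± 0.06 for attached and 4.09 ± 0.06 for floating cells (adjusted p 2.58e-24 and 1.04e-25 by edgeR's quasi-likelihood test). In control cells THBD fell with suspension (-1.03 ± 0.07, adjusted p 7.55e-12), and its interaction was 0.94 ± 0.08 (adjusted p 2.45e-08). THBD is also made by endothelial cells, and the part of the endothelial marker rise given above was not tested.

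CTSL, a lysosomal cysteine protease that clade B serpins can block, rose with suspension in control and in GFI1 cells (1.05 ± 0.04 and 0.66 ± 0.04, adjusted p 4.47e-16 and 4.85e-12, edgeR). Its interaction was -0.39 ± 0.06 (adjusted p 3.79e-05). PLAU was the gene with the lowest adjusted p among those lower with suspension in GFI1 cells (-1.42 ± 0.08, adjusted p 3.44e-13). Of the C1 protease genes, C1R was at 63.1 to 80.1 CPM over the 12 libraries and was higher with GFI1 in floating cells by 0.18 ± 0.05 (edgeR, adjusted p 0.00578). C1S was higher with GFI1 in attached cells by 0.20 ± 0.05 and with suspension in control cells by 0.42 ± 0.05, and its interaction was -0.32 ± 0.07 (edgeR, adjusted p 0.00195, 3.76e-07 and 0.00566). LRP1 rose with suspension by 1.27 ± 0.19 in control cells and by 2.30 ± 0.20 in GFI1 cells (edgeR, adjusted p 4.48e-06 and 2.16e-09). Its interaction was 1.04 ± 0.27 (adjusted p 0.0130). That value was 0.60 without floating GFI1 replicate 2 (adjusted p 0.00745) and 1.34 without floating GFI1 replicate 3 (adjusted p 1.26e-08).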

How the data were processed

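RNA-Seq libraries of control and GFI1-expressing A549 cells, attached or floating, were compared in 4 groups of 3, with groups and replicate numbers taken from the labels. The authors sequenced poly-A selected mRNA of sorted cells and deposited raw counts per gene. Their methods name Hisat2 and featureCounts on GRCh38, whereas the submitters' processing notes name Bowtie2, HTSeq and hg38. The annotation release is not given in the sources used here.

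The deposited counts were tested with edgeR 4.0.16 under R 4.3.3. The function filterByExpr (minimum count 10, minimum total 15) removed low genes, and TMM scaled the libraries, with factors of 0.939 to 0.971 in control and 1.04 to 1.06 in GFI1 libraries. The 12 libraries entered 1 quasi-likelihood fit with a mean for each of the 4 groups, and 5 contrasts were tested two-sided with Benjamini-Hochberg adjustment over all tested genes. Calls needed an adjusted p of 0.05 or less and no fold change. CPM values are TMM scaled. Genes with 3 counts or fewer were taken as at the floor, which covers counting error only. The code was tested on simulated data with 200 changed genes.

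The member genes described, 33 in number, were found in GENCODE v44 and overlapped it by position. Promoter windows are from RefSeq, and those printed hold no base of an exon in GENCODE v44. Of the 34 members by the rule, 1 is not reported here. Every tested member described was named, with fold changes for those past the threshold. Interaction values of SERPINB8 and SERPINB9, and those of SERPINB1 and SERPINB6 without 1 library, were chosen after their values were seen. Partner genes were named for the lowest adjusted p in each direction, besides a few fixed ones. The members, lists and tests were chosen with earlier results of these data known. Alternatives were DESeq2 1.42.0, its size factors, scaling by library size only, other filters, only the groups compared, a replicate block, a 2-fold rule and leaving out each library.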

Additional observations from a re-analysis of the deposited data

Results flagged for a closer look

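The effect of suspension differed between GFI1 and control cells for 1 serpin gene, SERPINE2, by a test of that difference. The difference was 0.27 on the log2 scale (edgeR's quasi-likelihood test, adjusted p 0.00680), where suspension raised the gene in both kinds of cells, with a range of 0.24 to 0.29 over the fits that lacked 1 library.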

How the results depend on the processing

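The calls of 23 member fold changes were each compared with those under 18 or 19 alternative settings, 433 comparisons in all. Of these comparisons, 408 kept direction and call, 24 lost the call and 1 reversed. The comparisons share most libraries, and some leave out a library outside the contrast, so they are not independent. The reversed value was that of SERPINH1 for GFI1 in floating cells, 0.028 with scaling by library size only. That scaling moved the median of all genes to 0.14 in both GFI1 contrasts, and it moved the median of the serpin members for GFI1 in attached cells from -0.11 to 0.038 and in floating cells from -0.099 to 0.030. With a fold change of at least 2 required as well, the serpin calls were 2 and 2 for GFI1 in attached and floating cells, 0 and 0 for suspension in control and GFI1 cells, and 0 for the interaction, in place of 4, 7, 6, 5 and 1. Calls among the tested genes of both partner lists under this 2-fold rule were 13, 15, 7, 6 and 2 in place of 35, 31, 29, 23 and 13. With no filter on low counts, the interaction was called for 2 members, SERPINE2 and SERPINB9. Leaving out single libraries gave 4 serpin calls in every case for GFI1 in attached cells, 6 to 7 in floating cells, 5 to 7 and 3 to 5 for suspension in control and GFI1 cells, and 1 to 3 for the interaction. The 3 suspension calls in GFI1 cells were left without attached GFI1 replicate 3. SERPINE2 was called for the interaction in each of these fits. Without floating GFI1 replicate 2, SERPINB1 (-0.21, edgeR, adjusted p 0.0353) and SERPINB8 (-1.47, adjusted p 0.0473) were called too. Without floating GFI1 replicate 3, SERPINB6 (0.21, adjusted p 0.0447) and SERPINB9 (0.41, adjusted p 0.00986) were called too. SERPINH1 was called without attached control replicate 2 or floating control replicate 1, and SERPINB8 without attached GFI1 replicate 2 or floating control replicate 3. The partner calls ranged over 34 to 36, 30 to 35, 28 to 30, 21 to 24 and 10 to 18. The cause was not tested. With at least 10 counts in every library, SERPINB8 could not be tested.

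Same-numbered libraries of different groups showed no sign of pairing, since their 18 correlations lay between -0.031 and 0.031. This check cannot show that the numbers were unrelated, because noise in genes with few counts can hide a weak link. A replicate block gave 4, 6, 6, 5 and 1 serpin calls and 35, 31, 29, 23 and 14 partner calls, and of the named members only SERPINH1 for GFI1 in floating cells lost its call (adjusted p 0.0547, edgeR). With 3 libraries per group, members with few counts carried wide errors, and 21 members were not tested at all.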

Other observations

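SERPINB7, a serpin of squamous epithelium that did not pass the filter, had 5, 1 and 3 counts in the attached control libraries, 2, 5 and 1 in the floating control libraries, 0, 0 and 1 in the attached GFI1 libraries and 0 in each floating GFI1 library. It was named here after its values were seen. These counts are at or near the floor of 3, and no fold is given.

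AGT, which encodes angiotensinogen, has the serpin fold but no SERPIN symbol and lies outside the family as defined here. It was at 0.298, 0.543 and 0.459 CPM in the attached control libraries and at 1.46, 1.75 and 1.80 CPM in the attached GFI1 libraries, which did not overlap. It was at 1.13, 1.20 and 0.736 CPM in the floating control libraries and at 2.37, 1.32 and 1.69 CPM in the floating libraries with GFI1. AGT was higher with GFI1 in attached and in floating cells (log2 fold change 1.93 ± 0.34 and 0.81 ± 0.29, adjusted p 2.50e-05 and 0.0194, edgeR's quasi-likelihood test) and higher with suspension in control cells (1.21 ± 0.38, adjusted p 0.0120). The interaction of -1.12 ± 0.46 was not past the threshold (adjusted p 0.136).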
